A study of Mus musculus with 32 samples.

Results

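The 10 genes described here are Fbxw13, Fbxw14, Fbxw15, Fbxw16, Fbxw18, Fbxw19, Fbxw20, Fbxw21, Fbxw24 and Fbxw28, a group of neighbouring mouse F-box genes. They were taken by symbol from a table of 34223 genes, and all 10 were present and passed the filter on low values. The table covers 32 wild-type mouse embryos, each sequenced singly when it had reached the late 2-cell stage 28 h post-IVF (in vitro fertilization). Every embryo, controls included, was microinjected with H3.3-GFP mRNA, which encodes a histone H3.3 joined to a green fluorescent protein. The injection also held an LNA oligonucleotide, whose locked nucleic acid bases bind RNA tightly. For the 16 Val_LNA embryos it targeted the valine tRNA fragment tRFValCAC, and for the 16 Ctrl_LNA embryos it was a scramble. Only GFP-positive embryos were kept, per the design text. Values below are normalised counts, the reads of a gene divided by the authors' size factor of the embryo. The comparison asks how inhibiting this tRNA fragment relates to transcript levels in the early embryo.

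F-box proteins are the interchangeable substrate receptors of SCF ubiquitin ligases, in which SKP1 and cullin 1 join the F-box protein to the RING protein RBX1. Members of the Fbxw class carry WD40 repeats as the part that can hold a substrate. The chromosome 9 group consists of close paralogs known for transcripts in the oocyte. The late 2-cell embryo holds both RNA stored in the egg and RNA made from its own genome, and a level measured at one time does not separate them. No oocyte was among these samples, so the oocyte origin in the usual name of the group was not checked here.

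All 10 members lay on the minus strand of chromosome 9 in the GENCODE M21 annotation of GRCm38, between 109139447 and 109702700, a span of 563254 bp. In order along the chromosome they were Fbxw21, Fbxw13, Fbxw20, Fbxw14, Fbxw28, Fbxw16, Fbxw19, Fbxw15, Fbxw24 and Fbxw18. Fbxw21 began the span at 109139447 to 109162041, Fbxw24 lay at 109601116 to 109626057 and Fbxw18 closed the span at 109676734 to 109702700. The span held 21 annotated genes, 13 of them named Fbxw, including Fbxw22, Fbxw25 and the pseudogene Fbxw23. The coding transcript of every member had 10 exons and 1392 to 1407 coding bases. Coding identity between members was 80.2% to 99.1% over 45 pairs, with a median of 83.9%. Fbxw14 and Fbxw28 were the closest pair, with 13 mismatches among aligned coding bases. Of all windows of 50 coding bases, 70.6% in Fbxw14 and 68.1% in Fbxw28 also occurred in another gene of the cluster, against a median of 10.2% over the 10 members. How the authors counted reads that fit several genes is not given in the sources used here, so the split of reads between Fbxw14 and Fbxw28 is uncertain and the members are also given as a sum.

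The likeness of the members extended upstream of their starts. RefSeq windows of 250 bases before to 50 after the start (GRCm38.p6) were found for 9 members, and their identity was 84.9% to 97.7% over 36 pairs, with a median of 90.9%. The lines below give 84 bases of each on the minus strand, 5′ to 3′, because every one carries the palindrome CAGCTG, set in capitals. CAGCTG is one form of the E-box CANNTG, a motif that basic helix-loop-helix factors such as the oocyte factor FIGLA recognise. The window of Fbxw24 is chr9:109626145-109626228 and that of Fbxw14 is chr9:109287757-109287840.
Fbxw21: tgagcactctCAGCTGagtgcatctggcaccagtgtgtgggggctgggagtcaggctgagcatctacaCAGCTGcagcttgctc
Fbxw20: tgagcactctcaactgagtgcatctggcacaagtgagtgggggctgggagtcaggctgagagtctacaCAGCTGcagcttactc
Fbxw14: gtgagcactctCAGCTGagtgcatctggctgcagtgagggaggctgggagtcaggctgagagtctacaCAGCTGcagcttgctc
Fbxw28: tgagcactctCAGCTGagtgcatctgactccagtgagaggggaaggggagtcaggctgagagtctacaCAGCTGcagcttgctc
Fbxw16: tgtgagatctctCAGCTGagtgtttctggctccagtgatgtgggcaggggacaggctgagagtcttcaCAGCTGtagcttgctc
Fbxw19: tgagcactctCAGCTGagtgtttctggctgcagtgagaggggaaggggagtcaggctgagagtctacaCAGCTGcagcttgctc
Fbxw15: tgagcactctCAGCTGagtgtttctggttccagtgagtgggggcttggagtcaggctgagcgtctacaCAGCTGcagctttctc
Fbxw24: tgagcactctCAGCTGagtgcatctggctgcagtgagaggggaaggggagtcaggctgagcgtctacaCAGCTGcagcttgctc
Fbxw18: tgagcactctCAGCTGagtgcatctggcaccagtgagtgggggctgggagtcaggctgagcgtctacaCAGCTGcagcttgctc
CAGCTG occurred in 9 of 9 member windows of 300 bases and in 16.3% of the 32851 RefSeq windows of that length. It was chosen for the search after these sequences had been read. The member windows are near copies of one another, so they do not count as independent windows beside these shares. In 8 members it occurred 2 times, at a distance of 56 to 58 bases, and 1.90% of all windows held at least 2 copies. In Fbxw20 the upstream site read CAACTG, which is still a match to CANNTG, and 1 copy of CAGCTG was found. The copy nearest the start began 80 to 125 bases before it. The pair was not particular to the members. Fbxw25 and Fbxw26, cluster genes that are not members, also carried CAGCTG, at positions -159 and -101 and at -157 and -99 from the start. The general E-box CANNTG, which includes CAGCTG, was in 9 of 9 member windows and in 72.3% of all windows. The homeobox motifs TAATTA and TAATTG were in 0 member windows, against 5.29% and 8.0% of all windows. TATAAA was in 0 member windows against 13.6%, and CCAAT was in 1, that of Fbxw16, against 37.4%. All motifs were searched on both strands, and a match is a description of letters only.

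Recovered reads totalled 2592925 to 6259870 per embryo, and 31 embryos had 16687 to 20200 genes detected. The remaining library, Ctrl_LNA 48, had 7276 genes detected from 5122089 reads and stood apart, so the main results on the members are given with and without it. Of 20 late 2-cell marker genes such as Zscan4 and Tdpoz members, 20 were detected in both groups. Their summed normalised count was 16140 to 51968 in Val_LNA and 9759 to 51178 in the 15 other controls. The sum of 10 cumulus cell markers was 3.83 to 167 and that of 6 sperm markers was 0 to 60.6 over these 31 embryos. The labels do not tie embryos to matings or injection sessions. The p-values thus rest on the spread among single embryos only.

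Fbxw24 was the most abundant member and Fbxw13 the least. On normalised counts per kb of annotated exon, the 15 controls other than Ctrl_LNA 48 had 903 ± 305 for Fbxw24 (SD, n = 15). Fbxw24 was the highest member per kb in 31 of 31 embryos. On the same scale followed Fbxw15 at 415 ± 204, Fbxw28 at 379 ± 153 and Fbxw14 at 330 ± 141, 3 levels whose gaps to one another were within their spread. Fbxw18 at 224 ± 130 and Fbxw16 at 208 ± 76.6 came next. Fbxw19 at 124 ± 55.6, Fbxw21 at 99.1 ± 48.6, Fbxw20 at 68.2 ± 36.4 and Fbxw13 at 48.8 ± 32.8 closed the order. On this length the gap to the next member exceeded the larger SD after Fbxw24 and after Fbxw16, and no other neighbours differed beyond their spread. Dividing by the coding transcript instead of all annotated exons put Fbxw28 at 493 ± 200 ahead of Fbxw15 and moved Fbxw19 to 292 ± 131, ahead of Fbxw16 and Fbxw18. Fbxw24 and Fbxw13 kept their places on both lengths.

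The make-up of the cluster's RNA was close in both groups. Fbxw24 gave 27.7% ± 3.83 of the summed member count in Val_LNA (SD, n = 16) and 27.0% ± 4.60 in Ctrl_LNA without library 48 (n = 15). Fbxw28 gave 14.5% against 14.4%, Fbxw14 13.7% against 13.5% and Fbxw15 12.1% against 12.2%. Fbxw19 gave 8.96% against 8.60% and Fbxw16 6.94% against 7.99%. Fbxw13 gave 1.11% ± 0.901 against 1.56% ± 1.22. For each of these members the shares differed by less than their SD.

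**Figure D1:**
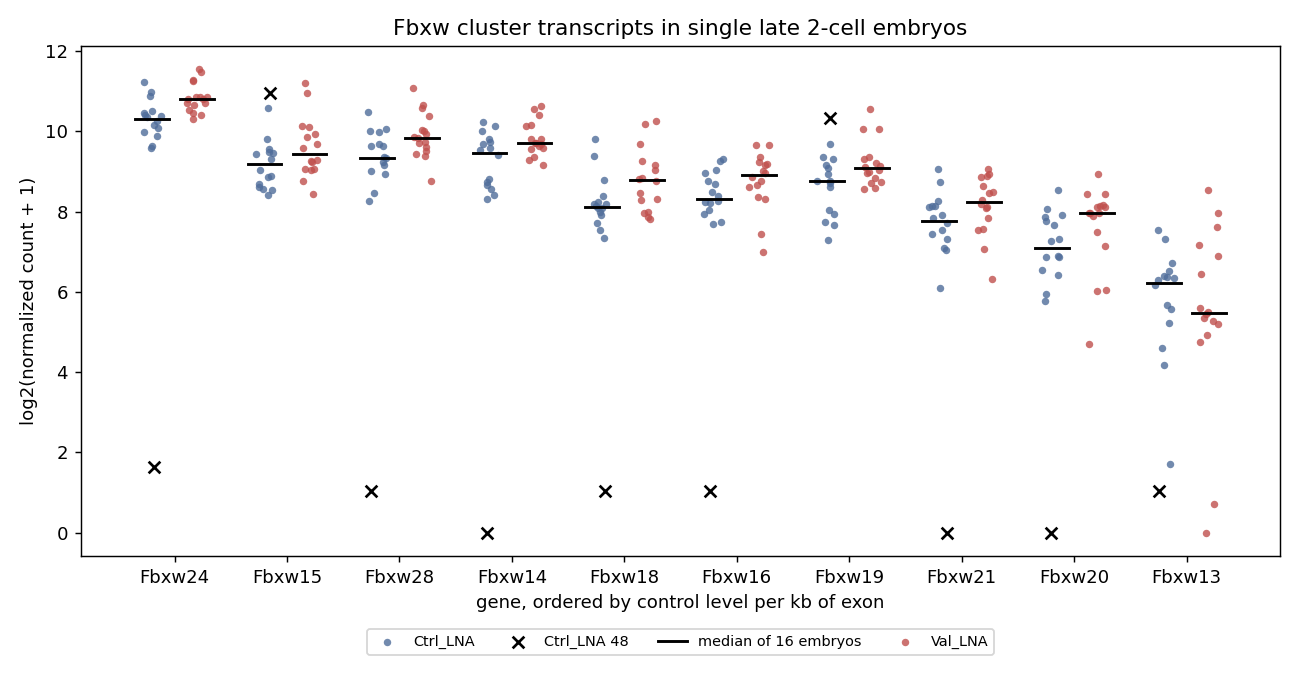
Each point is 1 embryo, the vertical axis gives log2(normalised count + 1), bars are medians of 16 embryos, blue is Ctrl_LNA and red is Val_LNA, and crosses mark Ctrl_LNA 48. The groups overlap for all 10 members, and the crosses lie near 0 for 8 members and above all other controls for Fbxw15 and Fbxw19.

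The summed count of the 10 members was higher in Val_LNA embryos as a group, with overlap. It was 4836 at the lowest, 6112 at the median and 13257 at the highest Val_LNA embryo. In Ctrl_LNA the lowest was 3008, the median 4462 and the highest 8279, and Ctrl_LNA 48 had 3289. All 16 Val_LNA embryos exceeded the control median, 4 of them (libraries 14, 8, 3 and 4) exceeded every control, and 9 of the 15 other controls were below the lowest Val_LNA embryo. The means were 7062 ± 2535 and 4922 ± 1589 (SD, n = 16 each), and 5031 ± 1582 in the 15 other controls. The difference of the mean log2(sum + 1) was 0.52 ± 0.16 (SE), and 0.48 ± 0.16 without Ctrl_LNA 48. No p is given for the sum, because its members were chosen with earlier results known. Each library pools the cells of 1 embryo, so a difference between its cells cannot be seen. The sum is a relative level after division by the size factor and gives no absolute amount of RNA.

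The members took 0.123% to 0.225% of all counts in Val_LNA, with a median of 0.148%. They took 0.0788% to 0.182% in the 15 other controls, with a median of 0.119%, and 0.0611% in Ctrl_LNA 48. The difference of the log2 sum changed with 1 scaling. When each embryo was centred on the median of its tested genes it was 0.07 ± 0.37 with all embryos and 0.41 ± 0.14 without Ctrl_LNA 48. That centring moved the median difference of all tested genes from 0.26 to -0.19 with all embryos. Ctrl_LNA 48 had 7276 genes detected against 15559 tested, so its median tested gene had no reads. Centring therefore did not lower its values as it did those of the other embryos. The summed count of 45 oocyte transcripts was also higher in Val_LNA, with medians of 97768 in Val_LNA and 74814 in the 15 other controls, and so was that of the late 2-cell markers, with medians of 23609 and 18786. Their part in the difference of the member sum was not tested.

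**Figure D2:**
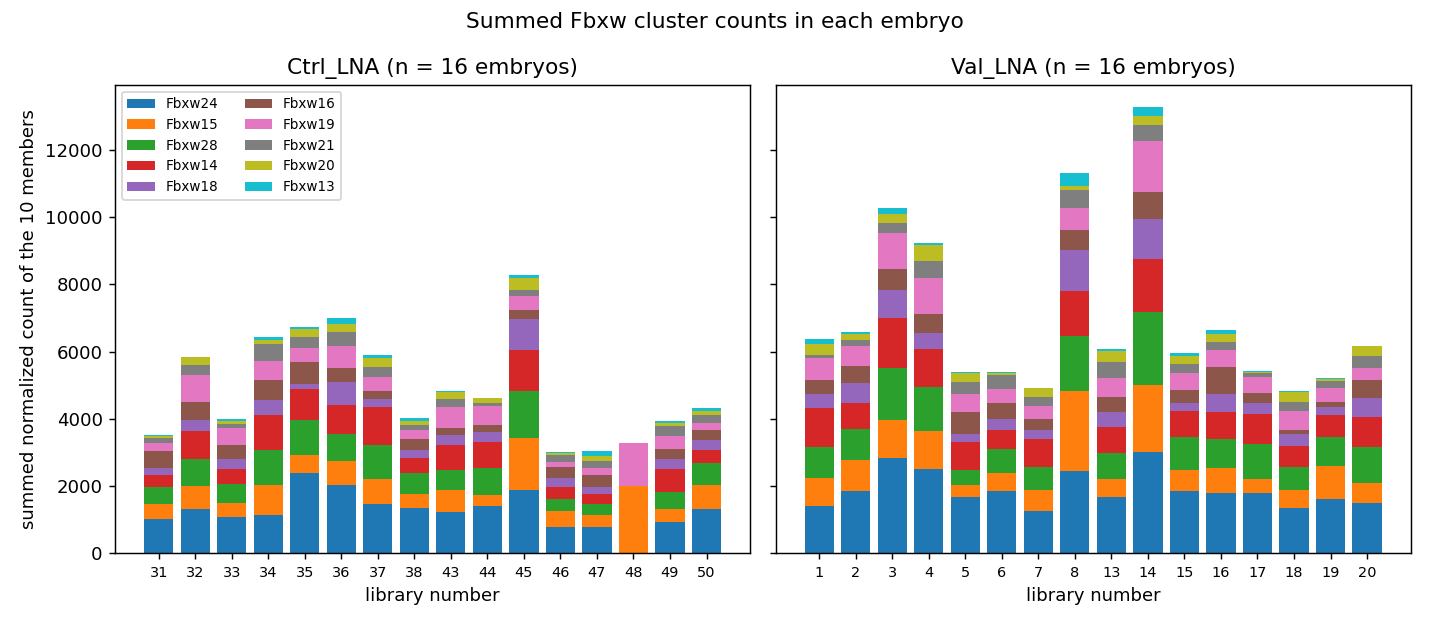
Each bar is 1 embryo, named by its library number, and its height is the summed normalised count of the 10 members, stacked by gene. Libraries 3, 4, 8 and 14 of Val_LNA exceed the highest control at 8279, and Ctrl_LNA 48 consists almost wholly of Fbxw15 and Fbxw19.

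In total reads Val_LNA libraries 14, 8, 3 and 4 were not the deepest of their group. Library 14, with the highest sum, ranked 11 of 16 in total reads from the lowest, and library 3 ranked 3. Libraries 8, 3 and 4 had 19996, 19379 and 19303 genes detected, more than any other Val_LNA embryo, and library 14 had 17138. The size factor was 0.80 for library 14 with 4736289 reads and 0.82 for library 13 with 3423664 reads. Library 8 had 0.82 with 4405147 reads, and library 6 had 1.15 with 4444135. Library 3 had 0.64 with 3172745 reads, and library 1 had 0.73 with 3128567. Library 4 had 1.01 with 4599490 reads, and library 17 had 1.16 with 4467723. Each of the 4 high libraries thus had a low size factor for its reads, and dividing by a smaller factor raises all normalised counts of an embryo. The part of these traits in the high sums was not tested. Across the 16 Val_LNA embryos the sum had a Spearman rho of -0.34 with total reads and 0.39 with genes detected. Across the 15 other controls rho was 0.08 and 0.52. These correlations share the library on both axes and are given as a description.

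Singly, 9 of the 10 members had higher mean log2 values in Val_LNA, and 0 members passed the test. With limma over all 32 embryos, 0 were called higher and 0 lower at a Benjamini-Hochberg adjusted p under 0.05, while 0.881% of the 15559 tested genes were called higher and 1.31% lower. At an unadjusted p under 0.05, 1 member, Fbxw24, was higher, where 8.88% of all tested genes were. The median member difference was 0.87 on the log2 scale against 0.26 for all tested genes, and 64.3% of all tested genes had a positive difference. Centring on the median gene turned Fbxw15 as well and left 8 of 10 positive, while edgeR and DESeq2 gave 10 of 10. With edgeR the calls were also 0, against 0.186% of all genes called higher, and 0 members were at an unadjusted p under 0.05, against 3.77% of all genes in the higher direction. DESeq2 called 0, against 1.32% of all genes, with 0 unadjusted, against 7.82%. For limma-voom the calls were 0 against 0.746%, with 0 unadjusted against 7.49%.

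Without Ctrl_LNA 48, 1 member, Fbxw24, was called higher by limma, where 1.57% of all tested genes were called higher and 2.63% lower. At an unadjusted p under 0.05, 5 members were higher (Fbxw14, Fbxw18, Fbxw19, Fbxw24 and Fbxw28), where 8.28% of all tested genes were. The median member difference was then 0.47 against 0.07 for all tested genes. Positive differences were found for 9 of 10 members and 54.2% of all tested genes. DESeq2 on the same 31 embryos called 0 members against 1.71% of all genes higher, with 6 at an unadjusted p under 0.05 against 7.66%. For edgeR the calls were 0 against 0.54%, with 3 unadjusted against 5.36%. The members are close paralogs that varied together between embryos, so these counts are not of independent genes.

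**Figure D3:**
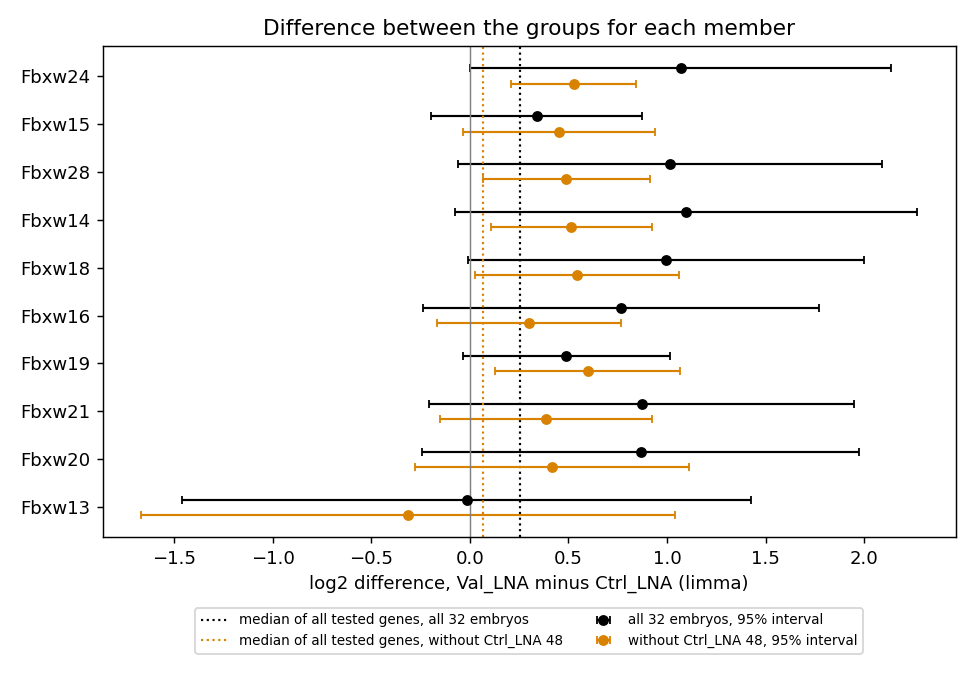
Points are log2 differences of group means, Val_LNA minus Ctrl_LNA, from limma with 95% intervals, with all 32 embryos (black) and without Ctrl_LNA 48 (orange), and dotted lines are the medians of all tested genes. Removing that embryo narrows the interval of Fbxw24 from 0.00 to 2.14 down to 0.21 to 0.84, and Fbxw13 lies to the left of 0 in both fits.

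Fbxw24 had 1260 normalised counts at the lowest, 1786 at the median and 3006 at the highest of the 16 Val_LNA embryos. In Ctrl_LNA the median was 1275 and the highest 2389, and the lowest was 2.1 in library 48 and 775 among the other 15. In 15 of 16 Val_LNA embryos the value exceeded the control median, and 4 exceeded every control. The groups overlapped, since the highest controls lay above the Val_LNA median. The log2 difference was 1.07 ± 0.53 (SE) with an adjusted p of 0.338 by limma, and 0.53 ± 0.16 with an adjusted p of 0.047 without Ctrl_LNA 48. On the 31 embryos its adjusted p was 0.0588 by DESeq2 and 0.197 by edgeR. With limma it was 0.0963 with depth as a covariate and 0.0786 after centring on the median gene, so among the settings run Fbxw24 was called in 1, limma without Ctrl_LNA 48.

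Fbxw14 and Fbxw28, the near-identical pair, showed like differences. Fbxw14 had 570, 835 and 1591 normalised counts at the lowest, median and highest Val_LNA embryo, and 320, 744 and 1213 in the 15 other controls. Fbxw28 had 437, 920 and 2162 in Val_LNA and 308, 653 and 1421 in the 15 other controls. Val_LNA embryos above the control median numbered 13 of 16 for Fbxw14 and 15 of 16 for Fbxw28, and both ranges overlapped widely. Their limma differences were 1.10 ± 0.58 (adjusted p = 0.370) and 1.01 ± 0.53 (adjusted p = 0.366). Without Ctrl_LNA 48 they were 0.51 ± 0.20 (adjusted p = 0.158) and 0.49 ± 0.21 (adjusted p = 0.208). The sum of both genes had medians of 1724 in Val_LNA and 1347 in the 15 other controls. Its log2 difference was 0.50 ± 0.20 without Ctrl_LNA 48. This sum does not depend on which gene of the pair a shared read was given to. It would depend on the counting if such reads were dropped or counted for both genes.

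Fbxw15 and Fbxw19 are the members that were also abundant in Ctrl_LNA 48. Fbxw15 had 347, 691 and 2384 normalised counts at the lowest, median and highest Val_LNA embryo and 343, 522 and 1535 in the 15 other controls. Fbxw19 had 377, 542 and 1521 in Val_LNA and 157, 431 and 828 in the 15 other controls. In Ctrl_LNA 48 they had 1999 and 1285 normalised counts, above all 15 other controls. The differences of both were therefore larger without that embryo, 0.45 ± 0.24 against 0.34 ± 0.26 for Fbxw15 and 0.60 ± 0.23 against 0.49 ± 0.26 for Fbxw19. Neither passed the limma test in either fit, with adjusted p of 0.342 and 0.152 without Ctrl_LNA 48.

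Of the less abundant members, Fbxw18 had a median of 443 normalised counts in Val_LNA and 282 in the 15 other controls, Fbxw16 484 and 333, Fbxw21 303 and 227, and Fbxw20 250 and 153. In each of these 4 genes 12 of 16 Val_LNA embryos exceeded the median of those controls, and none passed the limma test, with adjusted p of 0.271 to 0.573 without Ctrl_LNA 48. Fbxw13 was the exception in direction. Its median was 43.3 in Val_LNA and 77.6 in the 15 other controls, while its mean of 91.8 ± 103 in Val_LNA was above the 73.9 ± 49.7 of those controls (SD, n = 16 and 15). Its limma difference was -0.02 ± 0.71 (adjusted p = 0.993), and 6 of 16 Val_LNA embryos were above the control median. The highest value, 371 in Val_LNA 8, and the lowest, 0 in Val_LNA 7, both belonged to Val_LNA embryos, so this low gene had no settled direction.

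In Ctrl_LNA 48 the cluster was read unevenly along the chromosome. In order of position, Fbxw21, Fbxw13, Fbxw20, Fbxw14, Fbxw28, Fbxw22, Fbxw16 and the opposite-strand genes Gm42494 and Gm42493 had 0 or 1 read each. The 4 genes of the table that came next, Fbxw19, the pseudogene Fbxw23, the antisense gene Gm42756 and Fbxw15, had 1223, 1089, 157 and 1903 reads. Each of these 4 was above the highest of the 15 other controls, which had 917, 794, 120 and 1522. The genes that follow, Fbxw24, Fbxw25, Fbxw18 and Fbxw26, had 2, 0, 1 and 0 reads, whereas the lowest other control had 862 for Fbxw24. Fbxw27, the last of the group, had 347 reads, within the 122 to 741 of the other controls. In the same library 14 of 45 oocyte transcripts had no count. Missing counts were not particular to these genes. This library had 7276 genes detected, against 15559 tested and 16687 to 20200 detected in the other 31 embryos. Libraries were amplified by 20 PCR cycles without molecular identifiers, so these reads are not independent molecules.

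The members varied together between embryos. Over the 31 embryos without Ctrl_LNA 48, with each gene centred on its group mean, the Spearman rho of log2 values was positive in 45 of 45 member pairs, with a median of 0.39. The highest was 0.85 for Fbxw14 and Fbxw28 and the lowest 0.07 for Fbxw16 and Fbxw20. The order of the pairs by rho was not their order by coding identity, and how rho relates to identity or level was not tested. Fbxw24 and Fbxw28, the least alike pair with 80.2% coding identity, had a rho of 0.80, and Fbxw16 and Fbxw20, with 87.6%, had the lowest. These points share libraries and depth, and Fbxw14 and Fbxw28 may also share reads. Pairs of other genes were not computed, so the shared variation is not shown to be particular to the members.

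**Figure D4:**
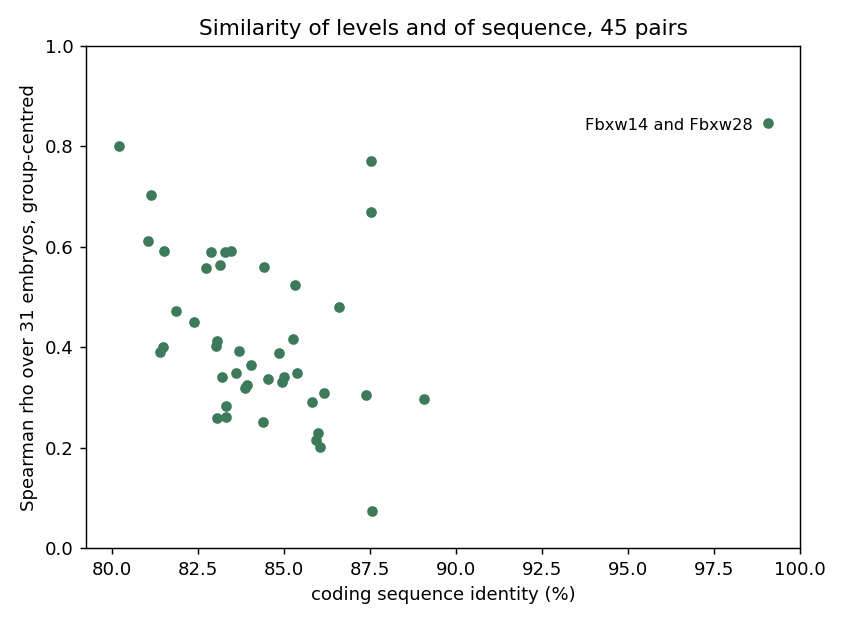
Each point is 1 of 45 member pairs, with coding identity in percent on the horizontal axis and Spearman rho over 31 embryos on the vertical axis. Fbxw14 and Fbxw28 stand alone at 99.1% and 0.85, and pairs under 90% spread from 0.07 to 0.80.

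Several transcripts outside the cluster followed the member sum across embryos. The 5 with the highest Spearman rho over the same 31 embryos were the processed pseudogene Gm21032 at 0.86, the nudix hydrolase gene Nudt5 at 0.86, Obox7 of the oocyte-specific homeobox family at 0.82, the immunoglobulin heavy chain gene Ighg1 at 0.82, and Oas1e of the oligoadenylate synthetase family at 0.80. With all 32 embryos these were 0.79, 0.74, 0.85, 0.84 and 0.82. Over 43 tested oocyte transcripts the median rho was 0.63, with 41 positive, against 0.07 for the 15549 tested genes outside the members. The other cluster genes had 0.63 for Fbxw25, 0.62 for Fbxw27, 0.58 for Fbxw22 and 0.55 for Fbxw26. Each value is a description over embryos that share depth and processing.

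The 4 other Fbxw genes of the cluster gave 4 positive differences and 0 limma calls. Their median difference was 1.10 over all embryos and 0.63 without Ctrl_LNA 48. In each limma fit 2 of them were higher at an unadjusted p under 0.05, against 8.88% and 8.28% of all tested genes. Of all tested genes, 64.3% and 54.2% had positive differences, and 0.881% and 1.57% were called higher. Fbxw22 had a median of 363 normalised counts in Val_LNA and 236 in the 15 other controls, with a log2 difference of 0.84 ± 0.32 and an adjusted p of 0.143 without that embryo. Fbxw25 had medians of 155 and 97.8 and a difference of 0.88 ± 0.43 (adjusted p = 0.287). Fbxw26 had medians of 278 and 222, and Fbxw27 had 221 and 206. Adding these 4 genes to the sum gave a log2 difference of 0.53 ± 0.17 for 14 genes, and 0.49 ± 0.17 without Ctrl_LNA 48.

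Inside the span the count table also held the pseudogene Fbxw23 and 3 transcripts on the opposite strand. Fbxw23 had medians of 342 in Val_LNA and 285 in the 15 other controls. Gm42494, which lies across Fbxw16, had 91.2 and 63.9, and Gm42756, at the end of Fbxw15, had 50.5 and 36.8. Gm42493, at the start of Fbxw16, was at 0 in the median control and did not pass the filter. The library protocol does not mark the strand, so reads of these transcripts and of Fbxw15 or Fbxw16 cannot be told apart where they overlap. By limma 0 of the 3 that were tested were called, with adjusted p of 0.462 to 0.552 over all embryos.

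Genes that work with F-box proteins are read against all tested genes, of which 2.19% were called in either direction and 14.7% had an unadjusted p under 0.05, shares near those of this list. Of 34 tested genes of the SCF core and its neddylation and deneddylation machinery (SKP1, cullin 1, RBX1, the COP9 signalosome and others), 0 were called by limma, 6 were at an unadjusted p under 0.05, and their median difference was 0.17. Without Ctrl_LNA 48 the median was 0.03 and 1 of the 34 genes, Cand2, was called lower. In that fit 2.63% of all tested genes were called lower, a share near that of this list. Cand2 is a relative of the exchange factor that swaps F-box proteins on cullin 1. Cand2 had medians of 100 in Val_LNA and 288 in the 15 other controls, with a difference of -1.89 ± 0.53 and an adjusted p of 0.0333. On the same 31 embryos Cand2 was not called by edgeR (adjusted p = 0.130) or by limma with depth as a covariate (adjusted p = 0.0507), and it was called by DESeq2 (adjusted p = 0.0364). Of 9 tested Fbxw genes elsewhere in the genome, such as Btrc and Fbxw7, 0 were called, with 0 at an unadjusted p under 0.05 and a median of 0.41, and without Ctrl_LNA 48 0 were called, with 1 unadjusted and a median of 0.34.

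Of 51 tested genes of the Fbxl and Fbxo classes, with Skp2 and Ccnf, 0 were called higher and 3 lower by limma. Over all tested genes 0.881% were called higher and 1.31% lower. Fbxo30 had medians of 158 in Val_LNA and 328 in Ctrl_LNA and fell by 1.32 ± 0.31 on the log2 scale (adjusted p = 0.0127). Ccnf, which encodes cyclin F, had 460 and 890 and fell by 1.08 ± 0.25 (adjusted p = 0.0136). Fbxo34 had 791 and 1551 and fell by 0.92 ± 0.23 (adjusted p = 0.0212). Without Ctrl_LNA 48 a further gene, Fbxo18, an F-box DNA helicase, was lower, with medians of 116 and 538 and an adjusted p of 0.00171. In that limma fit 4 of the 51 were called lower, against 2.63% of all tested genes. The median of the list was 0.26, the same as for all tested genes. Centring on the median gene with all embryos gave Fbxo30, Ccnf and Fbxo34 larger differences of -1.77, -1.53 and -1.37. It did not lower the values of Ctrl_LNA 48, and it ended these calls (limma adjusted p = 0.0887, 0.134 and 0.143). All 3 were called without Ctrl_LNA 48, both as scaled by the authors (adjusted p = 0.00414, 0.00968 and 0.018) and after centring (0.000987, 0.0113 and 0.0302).

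Among 43 tested oocyte transcripts (zona pellucida, Nlrp, Oog and Tcl1 genes and others), 38 had positive differences. By limma 0 were called higher and 1 lower. Of all tested genes, 64.3% had positive differences, 0.881% were called higher and 1.31% lower. The median difference was 0.77 with all embryos and 0.45 without Ctrl_LNA 48, close to the member medians of 0.87 and 0.47. The gene that fell was Omt2b, an oocyte maturation gene, with medians of 4425 in Val_LNA and 8686 in Ctrl_LNA and a difference of -0.81 ± 0.19 (adjusted p = 0.0108). Centring with all embryos gave -1.26 and ended that call (limma adjusted p = 0.168), while without Ctrl_LNA 48 Omt2b was called as scaled by the authors (-0.77, adjusted p = 0.0125) and after centring (-0.83, adjusted p = 0.00323). These lists were compared with the members by counts and medians only.

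The labels number the libraries in runs of 8: in Val_LNA the lower run is 1 to 8 and the upper is 13 to 20, while Ctrl_LNA has 31 to 38 as lower and 43 to 50 as upper. No label names them as batches. In the lower runs of each group the log2 difference of the member sum was 0.43 ± 0.22. In the upper runs it was 0.60 ± 0.23, and 0.55 ± 0.25 without Ctrl_LNA 48. Fbxw24 gave 0.43 ± 0.23 in the lower runs and 0.64 ± 0.22 in the upper runs without that embryo (limma adjusted p = 0.498 and 0.215). A limma interaction of group and run called 0 members and 0 of all 15559 genes, a background of 0%, with 0 members at an unadjusted p under 0.05 against 5.19% of all genes.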

How the data were processed

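Single embryos were profiled by mRNA sequencing of polyadenylated RNA, amplified by 20 PCR cycles and tagmented, per the labels' protocols. The tools named in the submitters' processing notes are STAR, Bowtie2, SAMtools and DESeq2, and the build is mm10. Versions and gene annotation: not given in the sources used here. Per gene and embryo, the deposited signal is gene counts that the authors divided by DESeq size factors, per the file headers and a second file of factors. Multiplying each value by its factor gave whole reads, within 0.01, for 1095136 of 1095136 values. Identifiers matched GENCODE M21 for 34179 of 34223 genes.

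The main test was limma 3.58.1 (R 4.3.3, trend and robust) on log2(normalised count + 1), over 15559 genes with at least 10 in at least 8 of 32 embryos. Fold changes are on that scale, Val_LNA minus Ctrl_LNA, which understates changes of low genes. Alternatives were edgeR 4.0.16, DESeq2 1.42.0 and limma-voom on recovered reads, other pseudocounts, filters and scalings, depth and run covariates, array weights, runs of library numbers and leaving out each embryo. The script was tested on simulated data. Values and sequences were handled with pandas 2.3.3, scipy 1.17.1 and Biopython 1.88, and drawn with matplotlib 3.10.9. The members and gene lists were chosen with earlier results of these data known. Genes named are the members, other genes of their span, up to 4 called genes of each list with the smallest p, and the 5 genes most like the member sum.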

Additional observations from a re-analysis of the deposited data

How the results depend on the processing

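The members had 0 calls in either direction under the pseudocounts of 0.5 and 10, both other filters, both other scalings, array weights, covariates for depth or run, runs alone, and edgeR, DESeq2 and limma-voom. Leaving out 1 embryo gave 0 to 1 member called higher, with the 1 (Fbxw24) without Ctrl_LNA 48, and 0 called lower. The log2 difference of the member sum was positive in all settings run. Leaving out 1 embryo gave 0.45 (without Val_LNA 14) to 0.57 (without Ctrl_LNA 45), and the value was 0.43 by TMM scaling, 0.49 with depth as a covariate and 0.07 after centring on the median gene. Fbxw13 turned positive with a pseudocount of 10 (0.086), in the upper runs (0.36), by edgeR (0.19) and DESeq2 (0.40), and by both without Ctrl_LNA 48 (0.094 and 0.17). Leaving out 1 embryo moved it between -0.31 and 0.35, with a sign change in 14 of 32. Centring with all embryos, which did not lower Ctrl_LNA 48, turned Fbxw15 to -0.11, RP24-187P11.2 (Gm42756) to -0.044 and Fbxw27 to -0.26. Fbxw27 was -0.32 in the upper runs and -0.24 there without Ctrl_LNA 48. The cause was not tested. The fits without Ctrl_LNA 48 with centring, a depth covariate, the interaction or the upper runs, the sum of 14 genes and the likeness over 32 embryos were added after seeing the data. No paired analysis was possible because the groups share no replicate numbers. Without molecular identifiers, reads of 1 embryo are not independent molecules, and for members at 0 to 2 reads no direction can be read in that library.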
